A study of Mus musculus with 16 samples.

Results

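The 10 genes described here were *Rela*, *Rel*, *Relb*, *Nfkb1* and *Nfkb2*, which encode the subunits of NF-kB, and *Nfkbia*, *Nfkbie*, *Nfkbiz*, *Bcl3* and *Tnfaip3*, which encode proteins that restrain or modify it. They were taken by their symbols from a table of read counts that listed 55385 genes, and all 10 were among the 14513 genes that passed the filter on low counts. RNA of CD11b+ cells was sequenced in 16 libraries, 4 per genotype, from brains of female mice that the labels give as 20 weeks old. CD11b is a surface protein of microglia, the resident macrophages of the brain, and of other myeloid cells. The meninges and choroid plexus had been taken off before the cells were bound to magnetic beads, which selected on CD11b alone. The authors checked the sort by flow cytometry and report that most of the cells had the profile they gate as microglia.

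The genotypes were WT, *Card9*-/-, 5xFAD and *Card9*-/-5xFAD. *Card9*-/- mice lack *Card9* in the germline, so that every cell type of the body carried the deletion, not microglia alone. 5xFAD mice carry human transgenes with familial Alzheimer's disease mutations under the *Thy1* promoter, which is used to drive expression in neurons, and deposit Abeta plaques in the brain. WT mice carried neither the deletion nor the transgenes, and the lines had been bred with C57BL/6J mice. The labels number the libraries as replicates and do not say that each came from another mouse, so that p-values measure the spread between these libraries.

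*Card9* itself was counted in every library. Libraries labelled WT held 36.9 ± 16.3 CPM (reads scaled to the size of the library, SD, n = 4) and libraries labelled *Card9*-/- 29.1 ± 8.36, while those labelled 5xFAD held 27.7 ± 8.28 and those labelled *Card9*-/-5xFAD 20.2 ± 11.8. The ranges overlapped and no comparison of *Card9* passed the test, with an adjusted p of 0.678 for the mean effect of the deletion. The files hold 1 number for the whole gene, so reads from any exons that were left intact cannot be set apart, and 87 bp of the exons of *Card9* overlap *Gm13562* on the other strand. The level of *Card9* therefore did not check the labels, and the directions given below for the deletion rest on those labels.

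Libraries held between 2970148 and 19333325 reads on genes. All 10 markers of microglia, among them *P2ry12* and *Tmem119*, were detected in every library, with a summed level of 14093 to 37333 CPM. Markers of neutrophils summed to 486 to 6266 CPM. In each genotype 1 library had a higher share of reads on ribosomal protein genes than the others (WT replicate 1, *Card9*-/- replicate 4, 5xFAD replicate 1 and *Card9*-/-5xFAD replicate 4). The share was 4.30 to 6.17% in these 4 libraries and 1.05 to 3.37% in the other 12. Among the other 12 it was 1.05 to 1.99% without the transgenes and 2.36 to 3.37% with them. Results below are given also without these 4 libraries where that changed a call.

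NF-kB is a dimer of Rel family proteins that waits in the cytoplasm, bound to inhibitors of the IkB family, until kinases mark the inhibitor for destruction and the dimer enters the nucleus. Several of its targets encode its own inhibitors, so that activation is followed by feedback, and *Nfkbia* is the textbook case. CARD9 is an adaptor that myeloid cells use below Syk-coupled receptors, where it joins BCL10 and MALT1 to switch on the kinases that free NF-kB. In microglia the pathway drives cytokines, chemokines and survival genes.

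Promoter windows of 5 of the genes, searched for a motif that NF-kB binds, are shown because *Rel* and *Nfkbie* fell with the transgenes, *Nfkbia* had the opposite sign, *Tnfaip3* is a feedback gene with more than one match, and *Rela* held no match. Each window runs 5′ to 3′ on the strand of the gene, from 130 bases before to 20 bases after the start in RefSeq on GRCm38.p6, with each match to the kB consensus motif, on either strand, in capitals.
Rel (chr11:23770950-23771099, minus strand): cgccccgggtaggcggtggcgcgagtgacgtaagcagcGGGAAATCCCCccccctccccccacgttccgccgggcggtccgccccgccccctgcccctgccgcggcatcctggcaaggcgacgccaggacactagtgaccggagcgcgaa
Nfkbie (chr17:45555570-45555719, plus strand): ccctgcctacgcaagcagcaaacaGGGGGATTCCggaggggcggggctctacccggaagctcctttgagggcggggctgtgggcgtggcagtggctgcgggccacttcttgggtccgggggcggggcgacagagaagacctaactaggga
Nfkbia (chr12:55492628-55492777, minus strand): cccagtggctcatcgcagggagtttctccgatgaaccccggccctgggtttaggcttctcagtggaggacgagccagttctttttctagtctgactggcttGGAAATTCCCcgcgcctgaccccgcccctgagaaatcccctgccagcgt
Tnfaip3 (chr10:19015391-19015540, minus strand): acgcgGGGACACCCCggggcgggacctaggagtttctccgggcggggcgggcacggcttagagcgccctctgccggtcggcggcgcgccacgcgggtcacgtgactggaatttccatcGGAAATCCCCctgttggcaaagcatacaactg
Rela (chr19:5637411-5637560, plus strand): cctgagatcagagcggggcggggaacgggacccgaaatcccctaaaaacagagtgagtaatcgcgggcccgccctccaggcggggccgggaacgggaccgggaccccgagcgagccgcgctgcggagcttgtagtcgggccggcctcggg

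The RefSeq table held promoters of 7 of the 10 genes, and those of *Nfkb1*, *Relb* and *Nfkbiz* were not analysed here. The motif of 10 bases was present in 6 of the 7 genes within 250 bases before to 50 bases after a listed start. The same held for 9.55% of the 27025 gene symbols in the table, and 8.46% of its 32851 single promoters had a match. In *Rel* it lay at -92 to -83 relative to the start, with an overlapping match 1 base on, and in *Nfkbie* at -106 to -97. In *Nfkbia* it lay at -29 to -20, in *Tnfaip3* at -125 to -116 and at -12 to -3, and in *Bcl3* at 3 to 12 past the start. The first of 3 listed starts of *Nfkb2* had matches at -39 to -30, with an overlapping match 1 base on, and at -11 to -2. The other listed starts had matches as well. A match is a match of letters, and no binding was measured.

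Scaled by exon length, the genes spanned more than 2 orders of magnitude in level. *Nfkbia*, which encodes IkBalpha, the inhibitor that is degraded and remade fastest, was highest, with 341 ± 190 CPM per kb of exon over the 16 libraries (SD), above 98.8% of the genes with a known length. *Rela*, whose product p65 is the main activating subunit, followed at 37.9 ± 17.2 CPM per kb, and the order *Nfkbia* above *Rela* held in 16 of 16 libraries. *Nfkbiz* had 21.4 ± 8.69, *Nfkb1* 12.1 ± 3.72, *Nfkbie* 10.2 ± 4.27, *Rel* 9.46 ± 4.20, *Tnfaip3* 8.30 ± 3.47 and *Relb* 7.0 ± 2.22 CPM per kb. Among these, neighbours in the order overlapped in range: *Rela* was above *Nfkbiz* in 12 of 16 libraries, *Rel* above *Tnfaip3* in 10 and *Tnfaip3* above *Relb* in 9. *Nfkb2* had 4.64 ± 1.40 CPM per kb, and *Bcl3* was lowest, at 2.17 ± 0.97 CPM per kb, below *Nfkb2* in 16 of 16 libraries. *Bcl3* rested on as few as 6 reads in a library, *Nfkb2* on 37 and *Relb* on 44, while *Nfkbia* had at least 895.

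**Figure D1:**
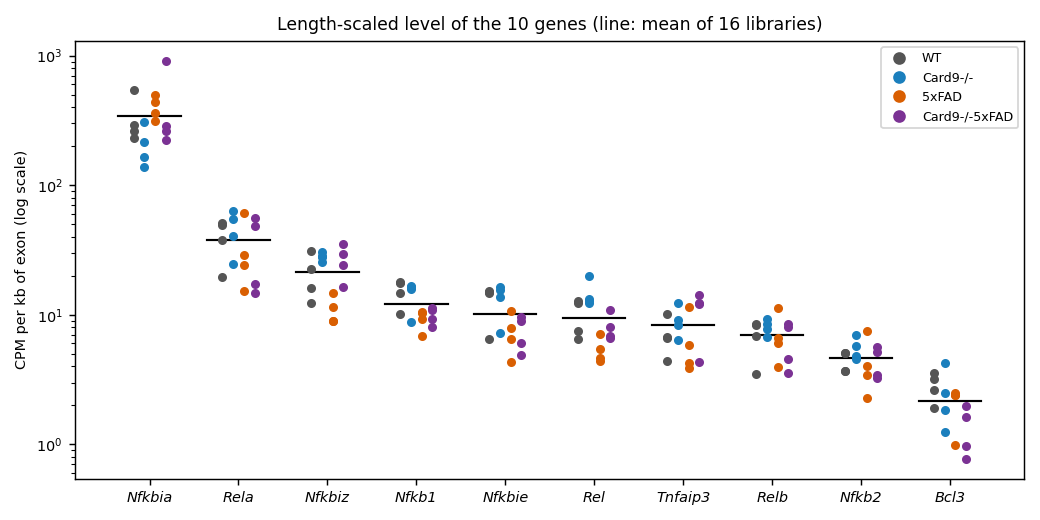
Level of each of the 10 genes in CPM per kb of exon, on a log axis, with a point for each of the 16 libraries coloured by genotype and a line at their mean. *Nfkbia*, at a mean of 341, stands above every other gene, and *Bcl3*, at 2.17, below.

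The comparison of mice with and without the transgenes asked how the pathway stood in CD11b+ cells of brains with plaques. Averaged over both *Card9* genotypes, 3 of the 10 genes passed the test at an adjusted p of 0.1 and all 3 fell with the transgenes: *Rel*, *Nfkbie* and *Nfkb1*. Of the 14513 genes tested, 11.3% passed, 816 higher and 831 lower. The median log2 change of the 10 genes was -0.42, against -0.15 over all genes tested, and 8 of the 10 had a negative sign. The remaining 7 genes did not pass, and *Nfkbia* and *Tnfaip3* were the 2 with a positive sign. The slope of log2 CPM on log2 exon length, each gene taken against its mean, was -0.14 to 0.15 in WT and -0.14 to 0.29 in *Card9*-/-. It was -0.22 to 0.07 in 5xFAD and -0.16 to 0.14 in *Card9*-/-5xFAD. With that slope as a covariate, chosen after seeing the data, *Rela*, *Relb* and *Nfkb2* had a positive sign too. *Rel*, *Nfkbie* and *Nfkb1* again passed as lower, while 24.5% of all genes passed. In bulk RNA, fewer cells of a type and less RNA per cell cannot be told apart.

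*Rel* encodes c-Rel, the subunit most tied to myeloid and lymphoid cells. Its level was 91.6, 49.0, 56.1 and 95.9 CPM in WT replicates 1 to 4, and 52.9, 34.7, 32.9 and 40.3 CPM in 5xFAD replicates 1 to 4. In *Card9*-/- it was 94.5, 98.7, 92.5 and 149 CPM, and in *Card9*-/-5xFAD 51.3, 60.1, 49.7 and 80.9 CPM. Every *Card9*-/-5xFAD library lay below every *Card9*-/- library, whereas the ranges of WT and 5xFAD met at 1 library of each. The mean change with the transgenes was -0.85 ± 0.20 (log2, SE), that is 1.81-fold lower, with an adjusted p of 0.0192 in edgeR's quasi-likelihood test. The size was nearly equal on both backgrounds, at -0.86 ± 0.29 without and -0.85 ± 0.29 with the deletion.

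*Nfkbie* encodes IkBepsilon, an inhibitor that holds dimers of c-Rel and p65 and is itself made late in the response. It had 19.9, 45.9, 46.7 and 44.8 CPM in WT replicates 1 to 4 and 13.04, 24.1, 19.8 and 32.8 CPM in 5xFAD. In *Card9*-/- it had 41.5, 50.1, 47.2 and 21.9 CPM and in *Card9*-/-5xFAD 27.4, 29.1, 14.9 and 18.4 CPM. WT replicate 1 and *Card9*-/- replicate 4, both with a high share of ribosomal protein reads, fell among the transgenic libraries, and the other 6 libraries without transgenes lay above all 8 with them. The mean change was -0.82 ± 0.26, 1.77-fold lower, with an adjusted p of 0.0657.

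*Nfkb1* encodes p105, which acts as an inhibitor until it is cut to the subunit p50. It had 121, 217, 211 and 178 CPM in WT replicates 1 to 4 and 83.0, 126, 112 and 124 CPM in 5xFAD. In *Card9*-/- it had 201, 192, 197 and 106 CPM and in *Card9*-/-5xFAD 135, 131, 97.8 and 111 CPM. The same 2 libraries without transgenes, WT replicate 1 and *Card9*-/- replicate 4, lay within the range of the transgenic libraries, and the other 6 lay above it. The mean change was -0.63 ± 0.19, 1.55-fold lower, with an adjusted p of 0.0634.

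The call of *Rel* held when any 1 of the 16 libraries was left out, with an adjusted p of at most 0.0484. Those of *Nfkb1* and *Nfkbie* were near the threshold: *Rel* alone passed without any of WT replicates 2, 3 and 4, *Card9*-/- replicates 1, 2 and 3, 5xFAD replicates 1, 2 and 3 or *Card9*-/-5xFAD replicate 3, a count of 1 in place of 3. Over all the fits without 1 library, 6.39 to 20.5% of all genes passed. Without the 4 libraries of high ribosomal protein share, *Rel*, *Nfkb1* and *Nfkbie* were again lower and *Nfkbia* passed as higher, while 34.5% of all genes passed. In the libraries left, that share was higher with the transgenes than without them, so its part cannot be told apart from theirs.

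**Figure D2:**
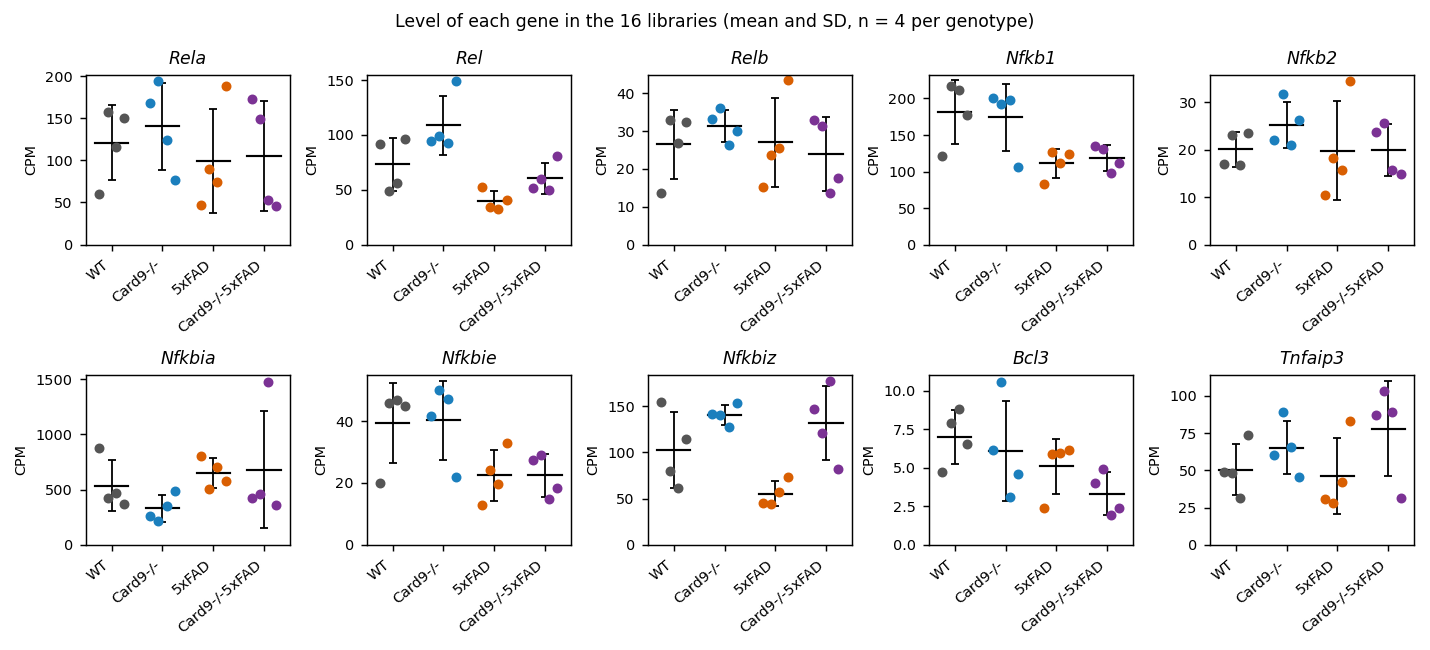
Level of each gene in CPM by genotype, with a point per library (replicates 1 to 4 from left to right), the mean and the SD (n = 4). *Rel*, *Nfkb1* and *Nfkbie* sit lower in both transgenic genotypes, and *Nfkbiz* sits lower in 5xFAD, between 44.7 and 73.5 CPM, than in *Card9*-/-5xFAD, between 82.1 and 177 CPM.

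The other subunits did not pass. *Rela* spanned 59.9 to 158 CPM in WT, 76.2 to 194 in *Card9*-/-, 46.7 to 188 in 5xFAD and 45.3 to 172 in *Card9*-/-5xFAD, a spread within each genotype that exceeded any difference between their means. Its mean change with the transgenes was -0.35 ± 0.35, with a 95% interval of -1.10 to 0.40. *Relb* and *Nfkb2* encode the partners of the alternative pathway, RelB and p100, the precursor of p52. *Relb* changed by -0.18 ± 0.26 with an interval of -0.72 to 0.37, and *Nfkb2* by -0.18 ± 0.23 with an interval of -0.67 to 0.32. Reads of *Nfkb2* could not be told from those of *AC114539.1* and *Psd* where their exons overlap on the other strand (531 and 299 bp), since the strand setting of the counting was not given in the sources used here.

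*Nfkbia* was the one IkB gene among the 10 with a positive change with the transgenes. It had 881, 422, 471 and 372 CPM in WT replicates 1 to 4, 806, 502, 708 and 576 in 5xFAD, 264, 221, 348 and 492 in *Card9*-/- and 425, 465, 1473 and 358 in *Card9*-/-5xFAD. *Card9*-/-5xFAD replicate 3 held more than 3 times the level of any other library of its genotype, and the rest of that genotype overlapped *Card9*-/-. The mean change was 0.66 ± 0.31 with an adjusted p of 0.225, and 0.30 ± 0.24 without that library.

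The nuclear IkB proteins bind NF-kB on DNA and can raise or lower transcription. *Bcl3* changed by -0.66 ± 0.31 with the transgenes (adjusted p = 0.213), from 4.75 to 8.82 CPM in WT and 2.43 to 6.13 CPM in 5xFAD. *Nfkbiz*, a nuclear IkB that is itself induced within the early response, changed by -0.49 ± 0.22 (adjusted p = 0.191). *Tnfaip3* encodes A20, an enzyme that edits ubiquitin chains and shuts the pathway off upstream, and its change was 0.06 ± 0.29 with an interval of -0.55 to 0.67. Reads of *Bcl3* share 161 bp of exon with the antisense gene *Gm16175*.

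Taken on each *Card9* background apart, none of the 10 genes passed the test, in comparisons of 4 libraries with 4. For 5xFAD against WT, 2.09% of all genes passed in edgeR, 4 of the 10 genes had an unadjusted p under 0.05 against 10.8% of all genes, and all 4 were lower (*Rel*, *Nfkbiz*, *Nfkb1* and *Nfkbie*). For *Card9*-/-5xFAD against *Card9*-/-, 1.97% of all genes passed, and 3 of the 10 had an unadjusted p under 0.05 against 12.2% of all genes, *Rel* and *Nfkbie* lower and *Nfkbia* higher. The change of *Nfkbia* there was 1.04, and 0.33 without *Card9*-/-5xFAD replicate 3. DESeq2 on all 16 libraries called 0 of the 10 in both as well, while 4.16 and 5.88% of all genes passed. Groups without any overlap of their libraries were found for 0 of the 10 genes in the first comparison, against 8.04% of all genes, and for 1, *Rel*, in the second, against 7.01%.

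Deviations of same-numbered libraries were correlated within each *Card9* genotype (r of 0.13 to 0.73), but different-numbered libraries were not compared. A fit with the replicate number as a block within each *Card9* genotype called more genes. That block was chosen from these same data, and the labels do not give it. In that fit 4 of the 10 passed for 5xFAD against WT (*Rel*, *Nfkbie*, *Nfkb1* and *Nfkbiz*, all lower) while 16% of all genes did. For *Card9*-/-5xFAD against *Card9*-/- it called 5, *Rel*, *Nfkbie*, *Bcl3* and *Nfkb1* lower and *Nfkbia* higher, while 20.4% of all genes passed. For the mean effect of the transgenes it called 7, adding *Rela*, *Nfkbiz* and *Bcl3* as lower and *Nfkbia* as higher, while 41.9% of all genes passed. The changes of *Rel* (-0.84 ± 0.12), *Nfkbie* (-0.82 ± 0.16) and *Nfkb1* (-0.61 ± 0.13) differed from the values without the block by less than their errors.

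Summed RNA of markers of border macrophages and of monocytes was lower in 5xFAD than in WT as well, while the ranges overlapped on the *Card9*-/- background. Sums for neutrophils, B cells, T and NK cells and endothelial cells overlapped in range between WT and 5xFAD. The border macrophage and monocyte lists were not independent, since both held *F13a1*, at 43.9 to 299 CPM over all libraries. The summed level of 6 border macrophage markers was 880 to 1432 CPM in WT and 515 to 646 CPM in 5xFAD, and 853 to 1695 CPM in *Card9*-/- and 370 to 1579 CPM in *Card9*-/-5xFAD. Monocyte markers, also 6, summed to 383 to 524 CPM in WT and 160 to 275 CPM in 5xFAD, and to 337 to 489 CPM and 129 to 362 CPM on the *Card9*-/- background. All were detected in every library, none of the defining markers *Mrc1*, *Ccr2* and *Ly6c2* being at 0. No test was run on these sums, and the part of these cell types in the lower *Rel*, *Nfkb1* and *Nfkbie* was not tested.

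**Figure D3:**
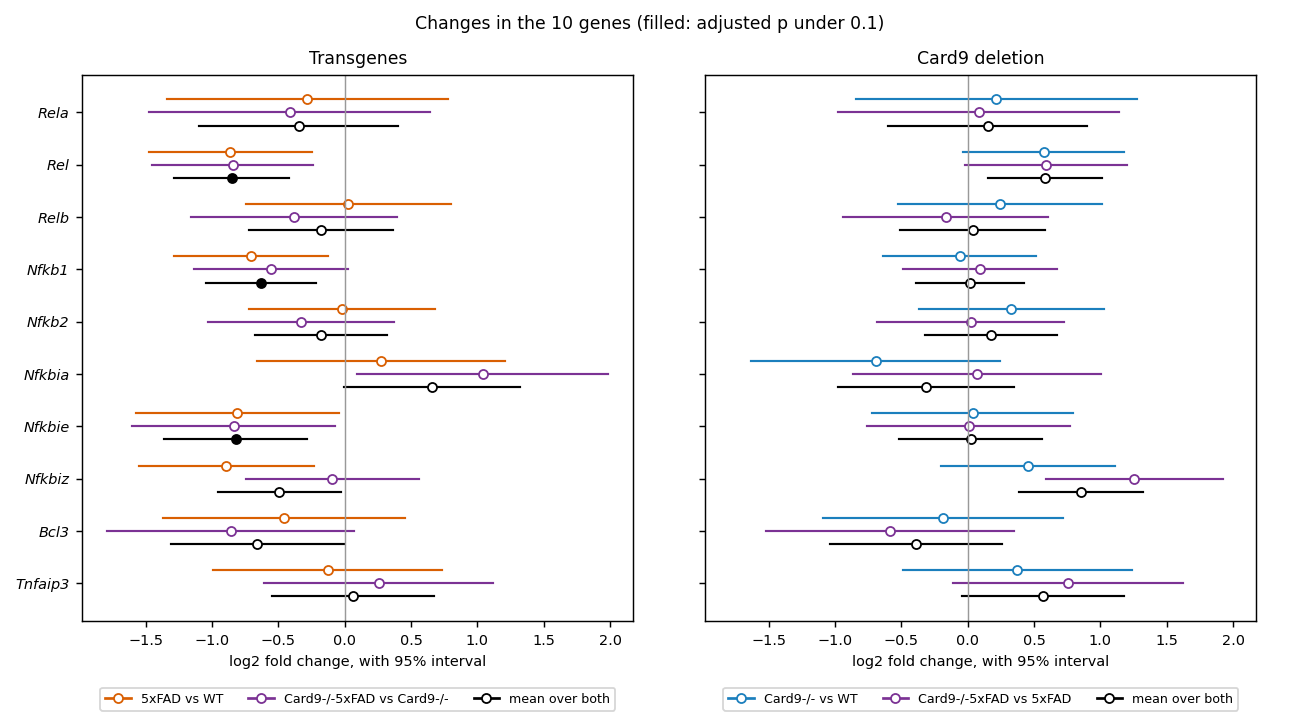
Log2 fold change of each gene with its 95% interval for the transgenes (left) and for the *Card9* deletion (right), on each background and as the mean of both, with filled points where the adjusted p was under 0.1. The filled points are the mean transgene effects of *Rel* (-0.85), *Nfkb1* (-0.63) and *Nfkbie* (-0.82).

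The comparison of *Card9* genotypes asked whether loss of the adaptor altered the genes of the pathway it feeds. Of the 10 genes, 0 passed in any of its comparisons in the edgeR fit of the 4 genotypes. DESeq2 on all 16 libraries called 1, *Nfkbiz*, for the mean effect of the deletion, while 0.422% of all genes passed. *Nfkbiz* was the gene with the lowest p, higher in *Card9*-/-5xFAD than in 5xFAD. It had 45.2, 44.7, 57.4 and 73.5 CPM in 5xFAD replicates 1 to 4 and 147, 120, 177 and 82.1 CPM in *Card9*-/-5xFAD, so that every library of the second lay above every library of the first. It had 155, 80.1, 61.6 and 114 CPM in WT and 141, 140, 127 and 154 CPM in *Card9*-/-, where the ranges overlapped.

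The difference of *Nfkbiz* between *Card9*-/-5xFAD and 5xFAD was 1.25 ± 0.31 on the log2 scale, 2.39-fold, with an interval of 0.59 to 1.92. Its p in edgeR was 0.00103 before adjustment and 0.993 after it, where 0% of the 14513 genes passed and the lowest adjusted p over all genes was 0.552. Of the 10 genes 1, *Nfkbiz*, had an unadjusted p under 0.05, against 2.52% of all genes, and 1, again *Nfkbiz*, had ranges that did not overlap, against 1.89%. DESeq2 called 0 of the 10 genes and 3 of all genes. The difference of *Nfkbiz* is not independent evidence, since that gene had been picked out from these same libraries before.

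Without transgenes, *Card9*-/- differed from WT for 0 of the 10 genes, with 0% of all genes passing. None of the 10 had an unadjusted p under 0.05 in edgeR, against 4.11% of all genes, and none had ranges that did not overlap, against 2.66%, while DESeq2 called 0 of the 10 and 6 of all genes. The change of *Nfkbiz* was 0.45 ± 0.31 and that of *Rel* 0.57 ± 0.29, while *Nfkbia* changed by -0.70 ± 0.44.

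As the mean with and without transgenes, the deletion raised no gene of the 10 past the threshold, which 0.0276% of all genes passed. Unadjusted p-values under 0.05 were found for 2 of the 10 against 9.12% of all genes, both for higher levels: *Nfkbiz* by 0.85 ± 0.22 (adjusted p = 0.496) and *Rel* by 0.58 ± 0.20 (adjusted p = 0.496). *Tnfaip3* changed by 0.56 ± 0.29, with an interval of -0.05 to 1.18, and *Bcl3* by -0.39 ± 0.31. *Nfkbia* changed by -0.31 ± 0.31, and by -0.67 ± 0.24 without *Card9*-/-5xFAD replicate 3. *Nfkbiz* passed in DESeq2 on all 16 libraries, with an adjusted p of 0.0619, and with 1 surrogate variable in the edgeR fit, with 0.0932. The median change of the 10 genes was 0.09, against 0.13 over all genes.

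The mean level of 30 early response genes, which rise within minutes when cells are stressed or stimulated, was set beside that of *Nfkbiz*. In log2 CPM the early response mean was 5.57 to 6.69 in 5xFAD and 6.30 to 6.99 in *Card9*-/-5xFAD. It was 6.33 to 6.79 in WT and 6.28 to 7.35 in *Card9*-/-, where *Nfkbiz* spanned 127 to 154 CPM. With that mean as a covariate the mean change of *Nfkbiz* with the deletion was 0.56 in place of 0.85, and its difference between *Card9*-/-5xFAD and 5xFAD 0.76 in place of 1.25. The mean change of *Tnfaip3* with the deletion was then 0.22 in place of 0.56. The part of the early response in the levels of both genes was not tested.

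No difference of the transgene effect between the *Card9* genotypes passed the test. The interaction called 0 of the 10 and 0% of all genes in edgeR, none of the 10 had an unadjusted p under 0.05, against 0.537% of all genes, and DESeq2 called 0 of the 10 and 1 of all genes. The interaction of *Nfkbiz* was 0.80 ± 0.44 on the log2 scale, with an interval of -0.13 to 1.73, and that of *Nfkbia* 0.77 ± 0.63, with an interval of -0.56 to 2.09.

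Within a genotype the 10 genes did not vary as 1 group. After the mean of each genotype was taken off, log2 CPM of *Nfkb1* and *Nfkbie* had a Pearson r of 0.93 over the 16 libraries, *Rela* and *Relb* 0.91, *Rela* and *Nfkbie* 0.90 and *Nfkb2* and *Relb* 0.84. *Nfkbia* ran the other way, with r of -0.72 to *Nfkbie*, -0.70 to *Nfkb1* and -0.66 to *Relb*, and *Rel* had -0.72 to *Nfkb1*. *Nfkbiz* was closest to *Tnfaip3*, with r of 0.68. These values are a description, since all genes of a library share its depth, its RNA and its handling.

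The split went in part with the library of highest ribosomal protein share in each genotype. *Rela* was lowest in that library in 4 of 4 genotypes, and *Nfkb1* and *Nfkbie* in 3 of 4, whereas *Rel* and *Nfkbia* were highest there in 3 of 4. *Rela* spanned 45.3 to 76.2 CPM in the 4 libraries of high ribosomal protein share and 53.5 to 194 CPM in the other 12, and *Nfkbie* 13.04 to 21.9 against 14.9 to 50.1 CPM. *Nfkbia* was not high in all of them: *Card9*-/-5xFAD replicate 4 had the lowest level of its genotype, 358 CPM, and replicate 3 the highest. That replicate 3, which was not among the 4, also had the lowest *Nfkb1* (97.8 CPM), *Nfkbie* (14.9 CPM) and *Relb* (13.7 CPM) of its genotype.

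**Figure D4:**
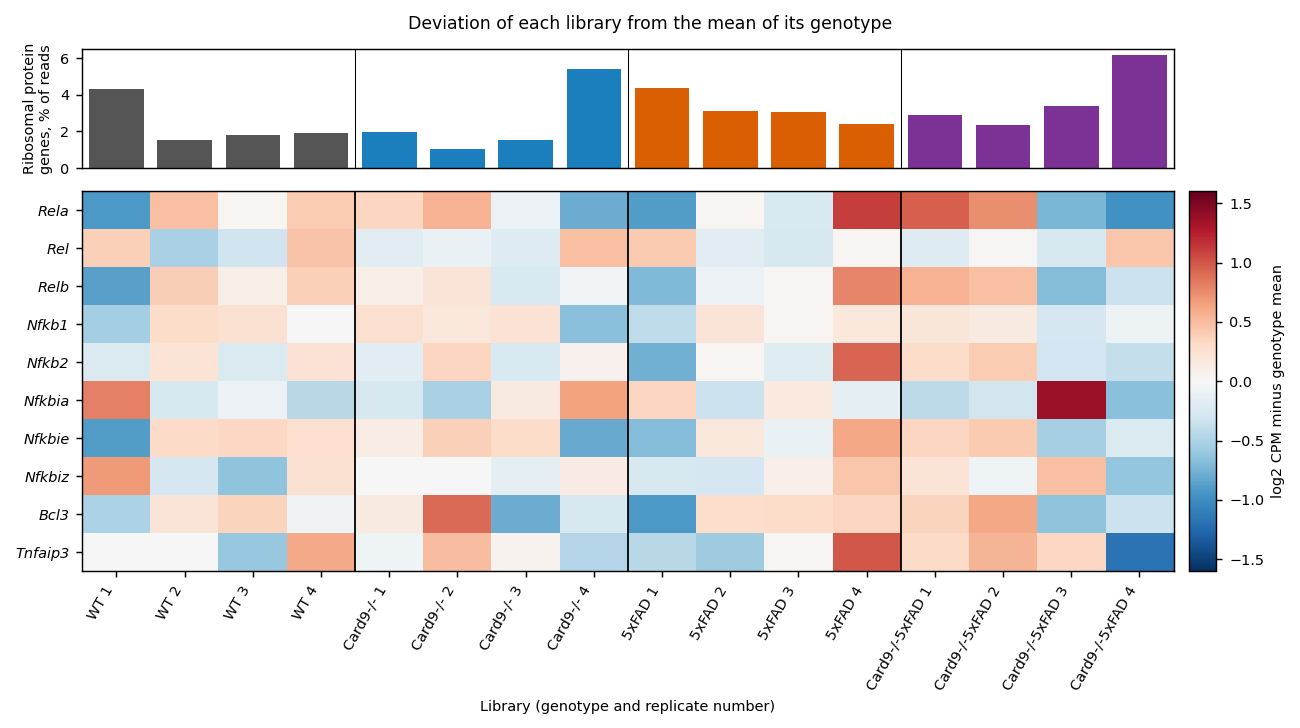
Log2 CPM of each gene minus the mean of its genotype in the 16 libraries, with the share of reads on ribosomal protein genes above. *Rela* is below its genotype's mean in WT replicate 1, *Card9*-/- replicate 4, 5xFAD replicate 1 and *Card9*-/-5xFAD replicate 4, where that share is 4.30 to 6.17%.

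Over all 16 libraries the genes outside the 10 with the most similar pattern differed for each. For *Rel* they were *Chd8*, *Hook3* and *Gm44668* (Pearson r of log2 CPM 0.96, 0.95 and 0.95). For *Nfkbie* they were *Fgd2*, *Zfp623* and *Spata2l* (0.98, 0.97 and 0.97), for *Nfkb1* *B4galt4*, *Traf5* and *Fam110a* (0.96, 0.95 and 0.95), and for *Rela* *Men1*, *Kif1bp* and *Arfgap1* (each 0.98). For *Nfkbia* they were *Id2*, *Gadd45b* and *Taf13* (0.95, 0.92 and 0.91).

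*Nfkbiz* was most like *Egr1*, an early response transcription factor, at 0.85, and then *Tagap* and *Zswim4* (0.85 and 0.83). With genotype means taken off its r with *Egr1* was 0.66. For *Nfkb2* the most similar were *Ltbr*, which encodes the lymphotoxin beta receptor of the alternative pathway, *Loxl3* and *Galnt6* (0.93, 0.92 and 0.91). For *Relb* they were *Dok1*, *Dbnl* and *Gorasp1* (each 0.94), for *Bcl3* *Kcnk12*, *Macroh2a1* and *Dnttip1* (0.89, 0.89 and 0.88) and for *Tnfaip3* *Tnks1bp1*, *Aars2* and *Iars* (0.86, 0.85 and 0.83). They were picked as the highest of all genes, over libraries that share their genotypes and depth.

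Other genes of the pathway were counted from a list of 40 that held none of the 10. All 40 were tested, and averaged over both *Card9* genotypes 6 of them (15%) passed, 5 lower and 1 higher with the transgenes, with a median log2 change of -0.30. Over all genes tested 11.3% passed and the median was -0.15. *Nfkbid*, a further nuclear IkB, changed by -0.97 ± 0.18 (adjusted p = 0.00314), from 46.6 ± 7.64 CPM in WT to 21.4 ± 5.61 in 5xFAD and from 64.2 ± 14.6 in *Card9*-/- to 36.6 ± 2.80 in *Card9*-/-5xFAD (SD, n = 4). *Tnip3*, a partner of A20, changed by -1.72 ± 0.34, and *Birc3*, a ubiquitin ligase of the receptor complexes, by -0.73 ± 0.17. The kinase genes *Tbk1* and *Chuk* changed by -0.75 ± 0.22 and -0.79 ± 0.27. *Trim30a*, which encodes a ubiquitin ligase, rose by 0.72 ± 0.19.

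In 5xFAD against WT alone, 2 of the 40 passed, *Nfkbid* (-1.13 ± 0.25) and *Tnip3* (-1.85 ± 0.48), both lower, while 2.09% of all genes passed. In *Card9*-/-5xFAD against *Card9*-/- 0 passed in edgeR, with 4 at an unadjusted p under 0.05, against 12.2% of all genes. DESeq2 on all 16 libraries called 4 there, while 5.88% of all genes passed. None passed in any comparison of *Card9* genotypes in edgeR, and DESeq2 on all 16 libraries called 0 in each. Unadjusted p-values under 0.05 in edgeR were found for 0 of the 40 in *Card9*-/- against WT, against 4.11% of all genes. They were found for 2 in *Card9*-/-5xFAD against 5xFAD and 4 for the mean, against 2.52 and 9.12% of all genes.

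Genes known as targets of NF-kB moved in both directions. Of 40 on the list 38 were tested, *Csf2* and *Nos2* having too few reads, and 11 (28.9%) passed for the mean effect of the transgenes, 7 higher and 4 lower, with a median log2 change of 0.02, against the same 11.3% and -0.15 over all genes. *Csf1*, the growth factor that keeps microglia alive, rose by 3.06 ± 0.35 (adjusted p = 4.18e-05), from 20.2 ± 14.8 CPM in WT to 172 ± 62.8 in 5xFAD and from 24.1 ± 13.8 in *Card9*-/- to 193 ± 54.8 in *Card9*-/-5xFAD (SD, n = 4). *Plaur*, the urokinase receptor, rose by 2.58 ± 0.32, and *Bcl2a1d*, a survival gene, by 1.76 ± 0.41, though *Bcl2a1d* has near-identical copies between which reads may be split. *Mmp9*, a matrix protease, changed by -1.66 ± 0.33 and *Ehd1*, an endosome protein, by -1.12 ± 0.23.

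In 5xFAD against WT 4 of the 38 targets passed, *Csf1*, *Plaur* and *Cxcl16* higher and *Ptgs2* lower. In *Card9*-/-5xFAD against *Card9*-/- 4 passed as well, *Csf1* and *Plaur* higher and *Ehd1* and *Mmp9* lower. No target passed between *Card9* genotypes in edgeR or in DESeq2 on all 16 libraries. Unadjusted p-values under 0.05 were found for 2 without transgenes, 1 with them and 3 for the mean, against 4.11, 2.52 and 9.12% of all genes. The 10 subunit and inhibitor genes, in contrast to the targets, had no member that passed as higher in this fit, and the difference between the lists was not tested.

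**Figure D5:**
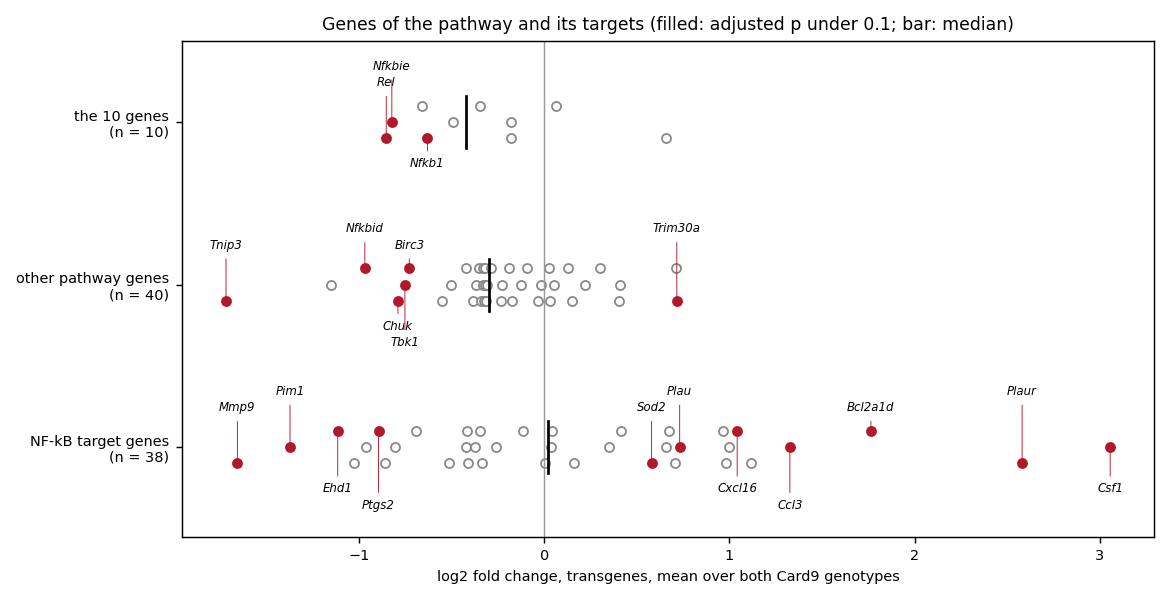
Log2 fold change with the transgenes, averaged over both *Card9* genotypes, of the 10 genes, 40 other genes of the pathway and 38 targets, with filled points where the adjusted p was under 0.1 and a bar at the median. The medians are -0.42, -0.30 and 0.02, and the largest change is that of *Csf1*, at 3.06.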

How the data were processed

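RNA of CD11b+ cells from 16 mouse brain samples, 4 per genotype, was measured by RNA-seq. Per the methods and labels, the authors aligned reads to mm10 with HISAT2, filtered them with SAMtools and counted them per gene with HTSeq; versions of these tools and the strand setting were not given in the sources used here. The deposited values were whole-number counts without normalization, and the counts of all 16 columns were used.

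Counts were tested in R 4.3.3 with edgeR 4.0.16 (TMM scaling, filterByExpr with a minimum count of 10, quasi-likelihood fit of 4 groups over all 16 libraries, Benjamini-Hochberg adjustment within each of 7 contrasts, threshold 0.1). The SE of a change was taken from the change and its F statistic, and the 95% interval from the t distribution. CPM used TMM library sizes, and log2 CPM a prior count of 2. Counts ranged from 2970148 to 19333325 reads per library, and genes with few reads, *Bcl3* above all, have the least precise values. Exon lengths and positions came from GENCODE M21 (GRCm38), and 93.3% of tested genes had a length.

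The 10 genes, the pathway, target, early response and cell type marker lists and the fits were chosen with earlier results of these data known. Genes named beyond the 10 were *Card9*, up to 5 passing genes of lowest p per list and comparison, the 3 genes of highest r per gene, and *Fos*, *Jun* and *Egr1*. Other passing list genes, *Chuk* among them, and single markers were named after their values were seen.

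No 2 libraries of a genotype agreed within counting noise (lowest chi-square per degree of freedom 6.28). Whether replicate numbers pair libraries was checked by the correlation of deviations from genotype means. Same-numbered libraries of WT and 5xFAD (r of 0.27 to 0.71) and of *Card9*-/- and *Card9*-/-5xFAD (r of 0.13 to 0.73) were all over 0.1, so the numbers were taken as pairs within each *Card9* genotype; the pairing comes from the data, since the labels give only numbers. Across *Card9* genotypes they were not all over 0.1, though r was 0.61 for replicate 2 of WT and *Card9*-/-5xFAD. Different-numbered libraries were not compared, so the check cannot tell pairs from variation that libraries share whatever their number. Alternatives used DESeq2 1.42.0, sva 3.50.0, other filters and scalings, covariates, replicate blocks and leaving out libraries. The edgeR fit was also run on simulated counts with planted changes. Those counts held no variation shared by the genes of a library, so the run cannot show how the fit handles it.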

Additional observations from a re-analysis of the deposited data

Results flagged for a closer look

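Of 40 sets of 4 libraries (10 genes in 4 genotypes), 5 held a library whose distance from the nearest of the others exceeded the 95% limit of Dixon's test, a limit that chance passes in about 1 set in 20. *Nfkb1* was 106 CPM in *Card9*-/- replicate 4 and 192 to 201 CPM in the other 3 libraries of that genotype. *Rel* was 149 CPM in the same library and 92.5 to 98.7 CPM in the others. *Nfkbie* was 19.9 CPM in WT replicate 1 and 44.8 to 46.7 CPM in the others. *Bcl3* was 2.43 CPM in 5xFAD replicate 1, from 16 reads, and 5.89 to 6.13 CPM in the others. Each of these 4 values lay in a library with the highest ribosomal protein share of its genotype. *Nfkbia* was 1473 CPM in *Card9*-/-5xFAD replicate 3, whose ribosomal protein share was 3.37%, and 358 to 465 CPM in the others.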

How the results depend on the processing

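For the mean effect of the transgenes, *Rel*, *Nfkb1* and *Nfkbie* were lower in every alternative run, though with the length covariate *Nfkbie* changed by -0.45 and *Nfkb1* by -0.41. The count of 3 called genes was 1 (*Rel*) with no filter on low counts, where 3.57% of all genes passed. It was 1 (*Rel*) at a threshold of 0.05, where 6.34% passed. With at least 10 counts in every library it was 2, where *Nfkb1* had an adjusted p of 0.122 and 11.2% of all genes passed. It was 4 with 1 surrogate variable, which added *Nfkbiz*, while 31.5% of all genes passed. With the replicate block within each *Card9* genotype it was 7, while 41.9% passed. When 1 library was left out it was 1 to 3, while 6.39 to 20.5% of all genes passed. A replicate block across all 4 genotypes left 3. For the transgenes without and with the deletion, in place of 0 and 0, 3 and 1 were called with 1 surrogate variable, 1 and 1 with the length slope of each library as a covariate, 2 and 4 without the 4 libraries of high ribosomal protein share, and 4 and 5 with the replicate block within each *Card9* genotype. Of all genes, 8.62 and 12.5%, 6.31 and 5.82%, 7.97 and 16.7% and 16 and 20.4% passed in these fits, against 2.09 and 1.97%. For the mean of the deletion, 1 (*Nfkbiz*) was called in place of 0 by DESeq2 on all 16 libraries and 1 (*Nfkbiz*) with 1 surrogate variable. Of all genes, 0.422 and 0.517% passed in these fits. The length covariate, the 4 libraries left out and the block within each *Card9* genotype were chosen after seeing the data. The cause of these differences was not tested.

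Signs turned only for changes that had not passed. The length covariate gave 0.0195 for *Nfkb2*, 0.11 for *Rela* and 0.0848 for *Relb* with the transgenes and -0.0093 for *Nfkbia* in 5xFAD against WT. *Nfkbiz* in *Card9*-/-5xFAD against *Card9*-/- was 0.0711 with at least 10 counts in every library, a filter that *Bcl3* did not pass, and 0.15 without the 4 libraries. *Nfkbia* in *Card9*-/-5xFAD against 5xFAD was -0.0385 with the replicate block across genotypes and -0.16 with the early response covariate. *Tnfaip3* with the transgenes was -0.0109 with the replicate block within each *Card9* genotype. Leaving out 1 library gave -0.0217 to 0.19 for *Tnfaip3* with the transgenes, -0.62 to 0.0354 for *Bcl3* in *Card9*-/- against WT, -0.64 to 0.28 for *Nfkbia* in *Card9*-/-5xFAD against 5xFAD and -0.27 to 0.0856 for *Nfkbiz* in *Card9*-/-5xFAD against *Card9*-/-.

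Counts for the pathway list, 2, 0 and 6 for the transgenes without the deletion, with it and on average, were 5, 6 and 13 with 1 surrogate variable, 5, 7 and 13 without the 4 libraries, and 6, 5 and 19 with the block within each *Card9* genotype. The first was 1 with DESeq2 size factors, no filter, at least 10 counts, the threshold of 0.05 or the early response covariate. The second was 4 in DESeq2 on all 16 libraries, 1 in DESeq2 on only the groups compared, 1 with DESeq2 size factors, 1 with the early response covariate, 2 with the replicate block across genotypes and 4 with the length covariate. The third was 2 with no filter. Of all genes, the share passing for the average effect was 31.5% with 1 surrogate variable and 34.5% without the 4 libraries. It was 41.9% with the block within each *Card9* genotype, 24.5% with the length covariate and 3.57% with no filter, against 11.3%. Counts for targets, 4, 4 and 11, were 14, 15 and 24 with 1 surrogate variable, 14, 17 and 26 without the 4 libraries, 18, 17 and 26 with the block within each *Card9* genotype and 13, 8 and 23 with the length covariate. They were 7 and 7 in DESeq2 on all 16 libraries, 2 and 2 at the threshold of 0.05, and 1 target passed for the deletion with 1 surrogate variable. The first was 7 in DESeq2 on only the groups compared, and 2 with at least 10 counts or the early response covariate, and the second was 1 in edgeR on only the groups compared and 2 with no filter. Without 1 library the pathway counts were 0 to 2, 0 to 2 and 4 to 9 and the target counts 2 to 6, 2 to 7 and 8 to 16. In those fits 1.1 to 2.6%, 0.804 to 4.84% and 6.39 to 20.5% of all genes passed.

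Scaling by DESeq2 size factors moved the median of all genes by 0.07 for the transgenes. With 4 libraries a group, the 95% interval of the mean change of *Rela* with the transgenes, -1.10 to 0.40, held 0 and changes of either sign.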

Other observations

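Of the 30 early response genes, 5 (16.7%) passed for the mean effect of the transgenes, 2 higher and 3 lower, against 11.3% of all genes. For the mean effect of the deletion 0 passed in edgeR, with 6 at an unadjusted p under 0.05, against 9.12% of all genes. *Egr1* was 443 ± 60.5 CPM in WT, 618 ± 65.1 in *Card9*-/-, 223 ± 130 in 5xFAD and 482 ± 204 in *Card9*-/-5xFAD (SD, n = 4). *Fos* was 1158 ± 239, 1114 ± 212, 929 ± 408 and 1566 ± 765 CPM, and *Jun* 1768 ± 527, 1969 ± 452, 1291 ± 787 and 1752 ± 640 CPM, in the same order.

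The level of *Nfkbia* in each library was divided by that of *Nfkbie*, the other classical inhibitor among the 10 genes. The ratio in CPM was 8.29 to 44.3 in WT, 4.41 to 22.5 in *Card9*-/-, 17.5 to 61.8 in 5xFAD and 15.5 to 98.5 in *Card9*-/-5xFAD, with medians of 9.65, 6.86, 28.3 and 17.7. The ratio of *Rel* to *Rela* had medians of 0.56, 0.66, 0.42 and 0.67 in the same order and ranged from 0.21 to 1.96. These ratios were chosen after seeing the data, and no test was run on them.

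Markers of B cells summed to 11.2 to 93.3 CPM over all libraries, with *Ms4a1* at 0 in 7 of 16. Those of T and NK cells summed to 12.9 to 238 CPM, with *Cd3e* at 0 in 12 of 16, and those of endothelial cells to 32.7 to 143 CPM.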
